A study of Mus musculus with 6 samples.

Results

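Expression of G protein-coupled receptor genes and of RGS genes was compared between fibroblasts sorted from mouse breast tumours with and without the surface protein Ly6C. The set was taken by gene name (adhesion, adenosine, nucleotide, adrenergic, lysophospholipid, protease-activated, endothelin, angiotensin, Mas-related, relaxin, serotonin and prostanoid receptors, the calcitonin receptor-like receptor with its RAMP partners, numbered GPR genes and RGS genes), which gave 94 of the 12235 genes in the table, 82 on the receptor side and 12 RGS genes. The name rule also takes in some genes that encode no receptor, such as Agtrap, a protein that binds the angiotensin receptor, and Gpr89, a Golgi pH regulator. The cells were podoplanin-positive cancer-associated fibroblasts (pCAFs) of BALB/c mice. Females aged 8 weeks had received 100000 4T1 cells, a mammary carcinoma line of the same strain, in the mammary fat pad; the labels call the injected line GFP-marked in 1 place and luciferase-marked in another. Cells negative for Ter119, CD45 and EpCAM and positive for PDPN were divided by Ly6C, with 3 libraries of Ly6C+ and 3 of Ly6C− pCAFs. All 6 libraries thus come from tumour-bearing animals, and no fibroblasts of tumour-free tissue enter the comparison. The labels do not say whether the repetitions came from separate animals or from pools, so the p-values measure only the spread between these libraries.

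G protein-coupled receptors cross the membrane 7 times and pass signals from hormones, lipids, nucleotides, proteases and matrix to heterotrimeric G proteins. Gs raises and Gi lowers cyclic AMP, Gq activates phospholipase C, and G12/13 signalling drives contraction in fibroblasts and smooth muscle. RGS proteins speed the hydrolysis of GTP by the G protein alpha subunit and so end the signal. In fibroblasts, angiotensin, endothelin, thrombin and lysophospholipids are known as contractile and matrix-inducing agonists, and prostaglandins and adenosine acting through Gs are known to oppose them.

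The libraries held 2150531 to 2818269 reads on the genes of the table in Ly6C+ and 1176909 to 1721480 in Ly6C− pCAFs, so the Ly6C+ libraries were deeper. The members took 0.273% to 0.299% of the reads in Ly6C+ and 0.312% to 0.322% in Ly6C− libraries. Of 10 fibroblast markers, 5 were higher (Pdgfra, Dcn, Col3a1, Pdpn and Lum) and Pdgfrb was lower in Ly6C+ pCAFs; Col1a2 lay between 20570 and 28390 normalised counts in every library, whereas Lum was as low as 4.92 in Ly6C− replicate 1. The genes used for negative sorting were low, with Epcam at or below 2.95 and Ptprc (CD45) at or below 4.88. Markers of other cells were not all low: Cd3e, a T cell gene (125 against 16.3), Fabp4, an adipocyte gene (87.2 against 10.5), and Itga2b, a platelet gene (63.7 against 13.4, group means), were higher in Ly6C+ pCAFs (adjusted p = 6.45e-05, 9.61e-05 and 0.00128), and their part in the receptor results was not tested. Each of these 3 was the only tested gene of its marker list. Of the other adipocyte genes, Cfd had no read and Adipoq and Cidec stayed at or below 0.773. The lymphocyte gene Cd79b went the other way, with 2 reads in Ly6C+ and 15 in Ly6C− libraries. Of 5 platelet genes listed, 1 was among the genes measured. Ly6C+ replicate 1 stood apart in granulocyte markers, with a summed level of 695.9 over 5 genes against 2.62 to 12.8 in the other 5 libraries. In these bulk samples fewer cells that express a gene and less RNA per cell cannot be told apart. Values below are normalised counts, that is reads divided by the library's size factor as the authors deposited them, and folds are ratios of group means. The test is limma on log2(value + 1), fitted to all 9646 genes with a mean of at least 5 and adjusted over all of them; at low values its folds come out too small.

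Of the 94 members, 52 had a mean of at least 5 and were tested, with 14 higher in Ly6C+ pCAFs and 12 lower at an adjusted p under 0.05. The remaining 26 tested members did not pass. Among all tested genes 17.1% were called, 9.41% higher and 7.66% lower, against 50.0% of the tested members (26.9% higher and 23.1% lower). Members that entered the test through 1 high group had to differ, so the share of called members is a description and no support for a shift of the set. Calls with at least a 2-fold difference made up 42.3% of the tested members, against 12.7% of all tested genes. Among the calls alone these were 22 of 26 for the members and 1228 of 1647 for all tested genes. The median log2 fold change of the tested members was 0.06 against −0.0007 for all tested genes, and the median size without sign was 0.87 against 0.36. No overlap between the groups was seen for 31 of the 52 tested members, against 33.1% of all tested genes; Ly6C+ was the higher group in 17 of them and Ly6C− in 14, where 17.1% and 16.1% of all tested genes were so divided. edgeR called 13 members higher and 12 lower (17.9% of all genes), and DESeq2 14 and 10 (16.1%). Calls in both directions occurred within the adhesion receptors, the numbered GPR genes and the RGS genes. The sections below take the families by their ligands.

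**Figure D1:**
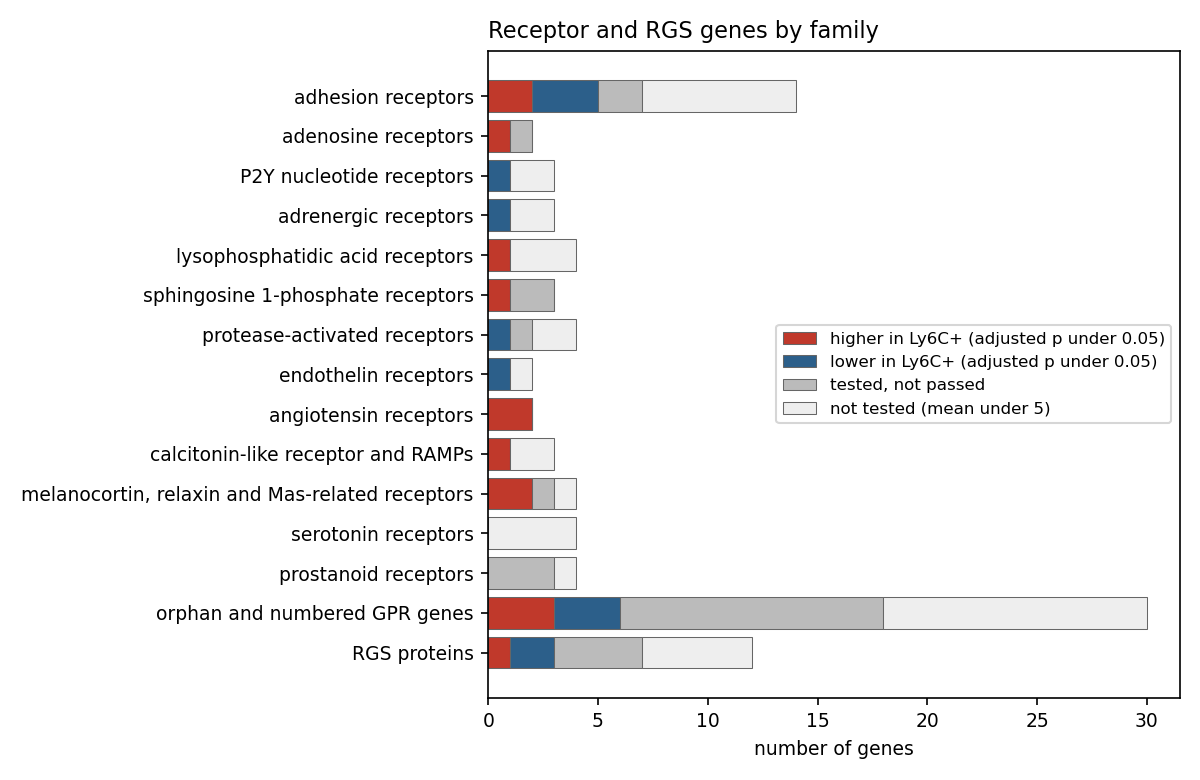
Number of member genes (x axis) in each receptor family and among the RGS genes, divided into those higher in Ly6C+ pCAFs, those lower, those tested without passing and those with a mean under 5, which were not tested. The adhesion receptors, the numbered GPR genes and the RGS genes hold calls in both directions, and all 4 serotonin receptor genes were under the minimum.

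Genes of angiotensin signalling were higher in Ly6C+ pCAFs. Agtr1a, the Gq-coupled type 1 angiotensin II receptor, measured 34.8, 36.1 and 39.4 across the Ly6C+ libraries, against 3.94, 3.40 and 5.24 for Ly6C−. All Ly6C+ values lay far above all Ly6C− values, and the fold was 8.76 (log2 fold change 2.88, SE 0.31; limma adjusted p = 7.35e-05). The gene maps to chromosome 13, 30336441 to 30382867, plus strand (mm10). Agtrap, which promotes internalisation of that receptor, stood at 123.2, 74.4 and 88.9 against 42.3, 39.1 and 49.8, 2.18-fold higher without overlap (adjusted p = 0.00740). On the ligand side Ace, the enzyme that makes angiotensin II, was 5.16-fold higher (976 ± 192 against 189 ± 16.8, SD, n = 3; adjusted p = 8.05e-06). Agt, the precursor of the peptide, was under the minimum for the test, at 6.71, 4.51 and 3.86 in Ly6C+ libraries and without a read in the 3 Ly6C− libraries.

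Endothelin receptor expression ran the other way. Ednra, the endothelin A receptor through which endothelin contracts mesenchymal cells, measured 32.9, 45.1 and 21.6 across the Ly6C+ libraries, against 134, 138 and 68.2 for Ly6C−. The Ly6C− library with 68.2 lay closest to the Ly6C+ values, and the groups did not overlap (3.41-fold higher in Ly6C−; log2 fold change −1.73, SE 0.33; adjusted p = 0.00360). Ednrb, the endothelin B receptor, had 1 read in all 6 libraries together. The ligand gene Edn1 (8.50 to 31.7 in Ly6C+, 15.3 to 25.6 in Ly6C−; adjusted p = 0.807) and the converting enzyme gene Ece1 (adjusted p = 0.584) did not pass.

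The adrenomedullin receptor consists of the calcitonin receptor-like receptor and a RAMP protein that brings it to the surface and sets its ligand. Ramp2, which gives an adrenomedullin receptor, measured 241, 162 and 117 across the Ly6C+ libraries, against 29.5, 22.1 and 23.6 for Ly6C−, 6.91-fold higher with the Ly6C+ values spread over a wide range (log2 fold change 2.69, SE 0.27; adjusted p = 4.76e-05). Calcrl itself was low and not tested, with 8.54, 10.5 and 5.41 against 1.97, 0 and 1.31. That is 35 reads against 3, a ratio of pooled reads of 8.08 (exact 95% counting interval 2.55 to 41.1). Ramp3 had 2 reads in Ly6C+ and 9 in Ly6C− libraries. The peptide gene Adm, named after its values were seen, was 4.75-fold higher in Ly6C+ pCAFs (617, 331 and 281 against 70.9, 57.8 and 130; adjusted p = 0.000794). Calcrl and Ramp2 are also known from endothelium: of 5 tested endothelial markers 2 were higher (Plvap and Tek) and 3 lower (Kdr, Egfl7 and Esam) in Ly6C+ pCAFs, Pecam1 was at or below 4.25, and their summed level over 7 genes was 110.5 to 144.6 in Ly6C+ and 40.6 to 183 in Ly6C− libraries. Their part in the result was not tested. Vps25, which overlaps Ramp2 on the same strand, stood at 110 to 218 in all libraries and did not pass (adjusted p = 0.508).

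For extracellular nucleotides and adenosine, receptors and enzymes differed in both directions. Adora2b, a low-affinity Gs-coupled adenosine receptor, measured 163, 171 and 161 across the Ly6C+ libraries, against 50.2, 49.3 and 34.1 for Ly6C−, 3.70-fold higher with close values within each group (log2 fold change 1.89, SE 0.20; adjusted p = 7.96e-05). Adora2a, which is also Gs-coupled, did not pass (5.41 to 13.5 against 0 to 11.8; adjusted p = 0.455). P2ry2, a Gq-coupled receptor for ATP and UTP, was 2.50-fold higher in Ly6C− pCAFs (22.6, 17.3 and 20.1 against 47.2, 50.2 and 52.4; adjusted p = 0.00242). The low-level genes P2ry14 and P2ry6 pointed to Ly6C+: P2ry14 had 15 reads there and none in Ly6C− libraries (at least 3.45-fold higher against a floor of 3 reads for the group), and P2ry6 had 14 against 3. Among the enzymes, Entpd2, which degrades extracellular ATP, was 10.3-fold higher in Ly6C+ pCAFs (641, 448 and 346 against 39.4, 53.6 and 45.9; adjusted p = 4.69e-06). Nt5e (CD73), which forms adenosine from AMP and was named after its values were seen, was 6.85-fold higher in Ly6C− pCAFs (4.88, 6.77 and 7.73 against 55.1, 38.3 and 39.3; adjusted p = 0.000126). Adora2b and Nt5e were higher in opposite groups, a pairing made after the values were seen. Entpd2 overlaps Npdc1 on the same strand, and Npdc1 was also higher in Ly6C+ pCAFs (adjusted p = 0.0151), so reads of this locus may be divided uncertainly.

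**Figure D2:**
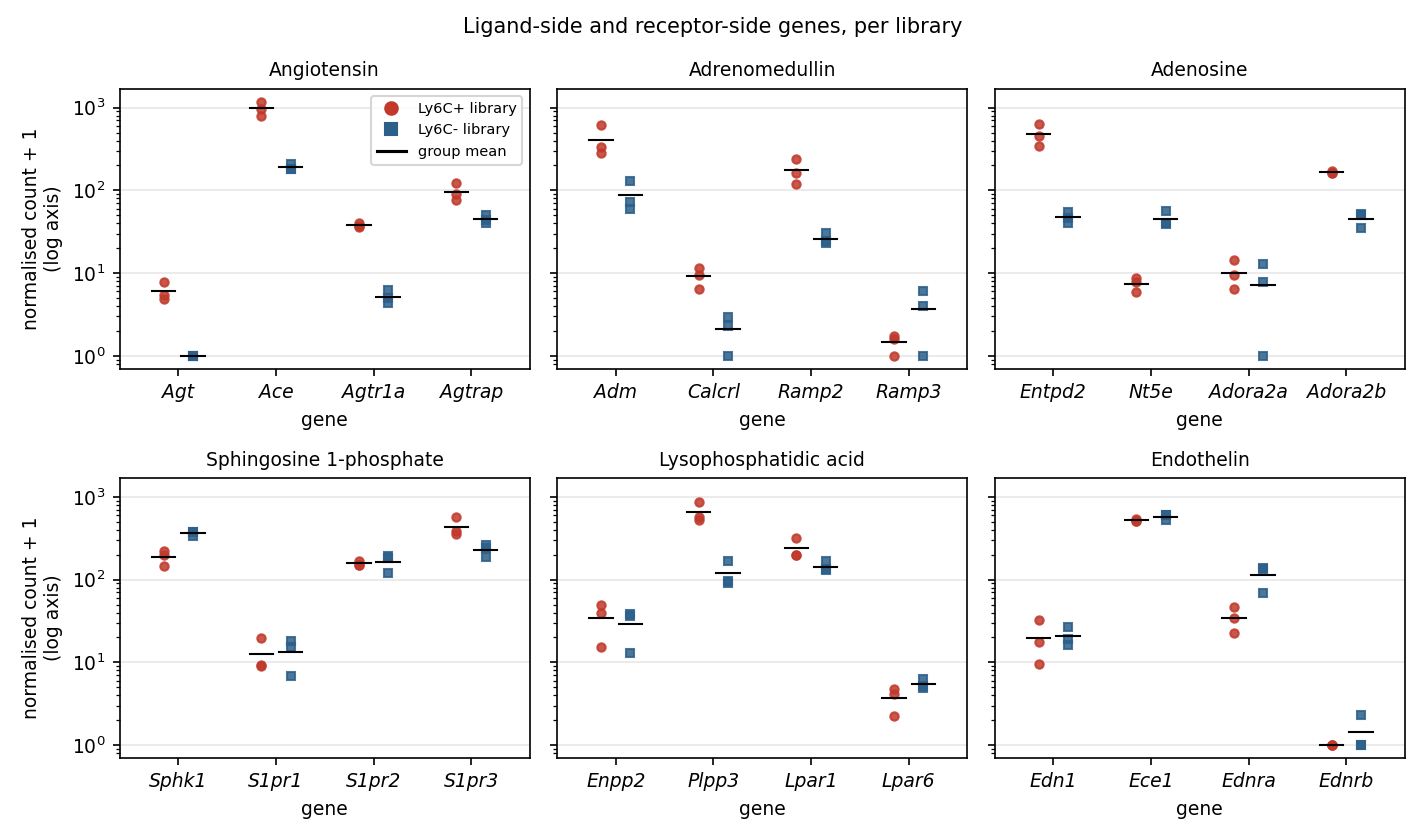
Normalised count plus 1 on a log axis (y) for ligand-side and receptor-side genes (x) of 6 signals, 1 point per library, with circles for Ly6C+ and squares for Ly6C− libraries and a black line at each group mean. Agt, Ace, Agtr1a and Agtrap lie higher in Ly6C+ libraries, while Nt5e, Sphk1 and Ednra lie higher in Ly6C− libraries.

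Adrenergic receptors were represented by 3 genes. Adra2a, the Gi-coupled alpha-2A receptor for noradrenaline, measured 10.98, 13.5 and 7.73 across the Ly6C+ libraries, against 63.0, 82.5 and 98.3 for Ly6C−, 7.56-fold higher in Ly6C− pCAFs without overlap (log2 fold change −2.82, SE 0.28; adjusted p = 4.76e-05). The gene maps to chromosome 19, 54044151 to 54048982, plus strand. The Gq-coupled alpha-1 receptor genes were low and not tested. Adra1d had 25 reads in Ly6C+ and 3 in Ly6C− libraries (ratio 5.77, counting interval 1.76 to 29.9), and Adra1b had 15 against 1 (ratio 10.4, interval 1.60 to 437).

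Of the 4 tested receptor genes for lysophospholipids, S1pr3 and Lpar1 were higher in Ly6C+ pCAFs and S1pr1 and S1pr2 did not pass; neither call held in every fit with 1 library left out. S1pr3, a sphingosine 1-phosphate receptor that couples to Gi, Gq and G12/13, measured 351, 384 and 575 across the Ly6C+ libraries, against 241, 185 and 262 for Ly6C−, 1.90-fold higher (adjusted p = 0.0142). Its call ended without Ly6C− replicate 2 (adjusted p = 0.0777). S1pr2 (149 to 168 against 119 to 194; adjusted p = 0.925) and S1pr1 (7.93 to 18.5 against 5.91 to 17.0; adjusted p = 0.939) overlapped between the groups and did not pass. Lpar1, the main lysophosphatidic acid receptor of fibroblasts, was 1.67-fold higher in Ly6C+ pCAFs (198, 199.9 and 318 against 128, 134 and 166; adjusted p = 0.0459). Without 1 library this call held only when Ly6C− replicate 3 was left out: it ended without Ly6C+ replicate 1, 2 or 3 (0.0597, 0.0622 and 0.1399) and without Ly6C− replicate 1 or 2 (0.103 and 0.154). The other LPA receptor genes, Lpar2, Lpar4 and Lpar6, stayed at or below 5.24 in every library. Plpp3, a phosphatase that degrades both lipids outside the cell, was 5.596-fold higher in Ly6C+ pCAFs (658 ± 191 against 118 ± 43.7, SD, n = 3; adjusted p = 7.48e-05). Sphk1, which makes sphingosine 1-phosphate and was named after its values were seen, was 1.93-fold higher in Ly6C− pCAFs (198, 218 and 147 against 371, 374 and 338; adjusted p = 0.00388), and Enpp2, which makes lysophosphatidic acid, did not pass (adjusted p = 0.808).

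Of 4 protease-activated receptor genes 2 were tested, and 1, F2r, was lower in Ly6C+ pCAFs. F2r, the thrombin receptor PAR1, measured 134, 127 and 158 across the Ly6C+ libraries, against 187, 305 and 402 for Ly6C−, 2.14-fold higher in Ly6C− pCAFs with the lowest of those values close to the Ly6C+ range (log2 fold change −1.03, SE 0.25; adjusted p = 0.0165). The call ended without Ly6C+ replicate 1 or 2 (adjusted p = 0.0679 and 0.0643) and without Ly6C− replicate 2 (0.0731). F2rl1 (PAR2) overlapped between the groups and did not pass (15.8 to 32.9 against 23.6 to 55.1; adjusted p = 0.220), though it did without Ly6C− replicate 1 (0.0338). The thrombin receptors F2rl3 (PAR4) and F2rl2 (PAR3) had no read in the Ly6C+ libraries. F2rl3 stood at 4.92, 5.96 and 15.7 in Ly6C− libraries (24 reads), at least 12.6-fold higher (7.73-fold without Ly6C− replicate 3), and F2rl2 at 3.94, 3.40 and 6.56 (13 reads), at least 6.58-fold higher, with 3 reads over the group as the floor. Both were under the minimum mean, and with no minimum they passed (adjusted p = 0.00129 and 0.00322).

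Serotonin receptor genes were all too low for the test. Htr2b, the Gq-coupled receptor known for fibrosis of heart valves, had 2 reads in Ly6C+ and 28 in Ly6C− libraries (ratio 20.2, counting interval 5.10 to 175.0), and Htr1b, which couples to Gi, had none against 22 (at least 10.96-fold higher in Ly6C−). With no minimum both passed (adjusted p = 0.00264 and 0.00555). Htr1d went the other way on 12 reads against 1, and Htr2a had 12 against 8.

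No prostanoid receptor gene passed. Ptgir, the Gs-coupled prostacyclin receptor, measured 28.1, 35.3 and 39.4 across the Ly6C+ libraries, against 16.7, 15.3 and 24.9 for Ly6C−, higher in Ly6C+ without overlap (log2 fold change 0.84, SE 0.28; adjusted p = 0.0637). It passed without Ly6C− replicate 3 (adjusted p = 0.0244). Ptger4, a Gs-coupled receptor for prostaglandin E2, also did not overlap and did not pass (13.4, 13.5 and 17.0 against 7.87, 9.36 and 10.5; adjusted p = 0.240). Ptger3, a Gi-coupled receptor for the same ligand, varied within Ly6C− pCAFs more than between groups (19.3 to 23.2 in Ly6C+; 62.0, 31.5 and 9.18 in Ly6C−; adjusted p = 0.786), and its log2 fold change of −0.28 became 0.32 without Ly6C− replicate 1. Hpgd, the enzyme that inactivates prostaglandins, was 17.9-fold higher in Ly6C+ pCAFs (73.2, 45.1 and 87.3 against 1.97, 4.25 and 5.24; adjusted p = 3.83e-05).

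Mas-related receptors include itch and pain receptors of sensory neurons and, in Mrgprf, a member known from mesenchymal cells. Mrgprg, an orphan of this family, stood at 142, 28.6 and 20.1 in Ly6C+ libraries and had no read in the Ly6C− libraries (296 reads against 0). Against the same floor of 3 reads for the group its Ly6C+ level was at least 62.4 times higher (adjusted p = 0.000161). Its highest value was in Ly6C+ replicate 1, the library with the granulocyte markers; without that library the bound was 24.0 and the call held (adjusted p = 0.00153). The gene maps to chromosome 7, 143763710 to 143766993, minus strand. Mrgprf was 1.89-fold higher (151, 91.7 and 116 against 43.3, 71.5 and 74.7; adjusted p = 0.0321), a call that ended without Ly6C+ replicate 1 or 3 (0.141 and 0.0782) or Ly6C− replicate 1 or 2 (0.0846 and 0.0584). Mrgpre did not pass (adjusted p = 0.794), and Rxfp1, the relaxin receptor, was not tested at 1.83 to 13.9 against 0.984 to 6.81.

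Adhesion receptors carry long extracellular parts that bind matrix or neighbouring cells. Of 14 genes 7 were tested, of which 2 were higher and 3 lower in Ly6C+ pCAFs. Adgrd1 (GPR133), a Gs-coupled adhesion receptor, measured 405, 351 and 389 across the Ly6C+ libraries, against 82.7, 56.2 and 59.0 for Ly6C−. The fold was 5.79, and its adjusted p was the smallest of all members (log2 fold change 2.53, SE 0.19; adjusted p = 7.45e-06). The gene maps to chromosome 5, 129096750 to 129204599, plus strand. Adgra2 (GPR124), known as a coactivator of WNT7 signalling, was 1.46-fold higher (880.2 ± 82.4 against 603 ± 81.9, SD, n = 3; adjusted p = 0.0437). Its call ended in 5 of the 6 fits that left out 1 library, all but that without Ly6C− replicate 1 (0.0637, 0.163 and 0.0926 without Ly6C+ replicates 1, 2 and 3; 0.0948 and 0.114 without Ly6C− replicates 2 and 3), and in edgeR (0.0576).

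Those lower in Ly6C+ pCAFs were Adgre5, Adgrl1 and Adgrb2. Adgre5 (CD97), a receptor for CD55 and Thy1, measured 78.1, 66.1 and 66.5 across the Ly6C+ libraries, against 190, 242 and 268 for Ly6C−, 3.32-fold higher in Ly6C− pCAFs (adjusted p = 9.77e-05). Ddx39, which overlaps it on the other strand, did not pass (adjusted p = 0.101). Adgrl1, latrophilin 1, was 2.02-fold higher in Ly6C− pCAFs with narrow groups (70.8, 65.4 and 78.0 against 150, 145 and 139; adjusted p = 0.00200). Adgrb2 was low (6.10, 4.51 and 3.09 against 19.7, 11.9 and 10.5; adjusted p = 0.0360). Its call ended without Ly6C+ replicate 1, 2 or 3 (0.0543, 0.0898 and 0.103), without Ly6C− replicate 1 or 2 (0.1205 and 0.0874) and with all libraries thinned to 1176909 reads (0.136). Adgra3 and Adgrl2 did not pass, and Adgrl2 did without Ly6C− replicate 1 (0.0350). Adgrg1 (GPR56), not tested, had 1 read in Ly6C+ and 18 in Ly6C− libraries, none of these in Ly6C− replicate 3.

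Of 30 genes with a GPR number or Gprc5 name, 18 were tested, with 3 higher in Ly6C+ pCAFs, 3 lower and 12 not passing. Gprc5b, an orphan of the retinoic acid-inducible group, stood at 194, 186 and 270 against 70.9, 45.9 and 26.2, 4.54-fold higher without overlap (adjusted p = 0.000511). Gpr84, a Gi-coupled receptor for medium-chain fatty acids that is best known from myeloid cells, stood at 57.9, 42.1 and 43.3 against 9.84, 17.9 and 14.4, 3.40-fold higher (adjusted p = 0.00155). Macrophage markers summed over 12 genes stood at 151 to 385 in Ly6C+ and 59.0 to 202 in Ly6C− libraries, with 1 of 7 tested markers higher (Lyz2), and their part in the Gpr84 difference was not tested. Gpr84 passed when Ly6C+ replicate 1 was left out (adjusted p = 0.0156). The other Ly6C+ replicates still had macrophage sums of 264 and 151, so that fit was no test of the markers' part. Gpr27, a Gq-coupled orphan, was 3.66-fold higher at a low level (18.3, 22.6 and 29.4 against 4.92, 5.10 and 9.18; adjusted p = 0.00578).

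Gpr39, a zinc-sensing receptor, was the numbered gene with the smallest adjusted p and was lower in Ly6C+ pCAFs. It measured 53.1, 57.1 and 67.2 across the Ly6C+ libraries, against 203, 202 and 215.0 for Ly6C−, 3.49-fold higher in Ly6C− pCAFs with little spread in either group (log2 fold change −1.79, SE 0.18; adjusted p = 4.38e-05). The gene maps to chromosome 1, 125676995 to 125873862, plus strand, and overlaps Lypd1 on the other strand. Gpr176, an orphan known from the circadian clock, was 2.38-fold higher in Ly6C− pCAFs (52.5, 104 and 55.6 against 143, 156 and 207; adjusted p = 0.00683). Gpr35, a receptor for kynurenic acid, stood at 3.05, 6.77 and 5.41 against 16.7, 21.3 and 13.1 (adjusted p = 0.0158), a call that ended without Ly6C+ replicate 1 (0.0623) or Ly6C− replicate 2 (0.0881). Gpr39, Gpr35 and P2ry2, lower in Ly6C+ pCAFs, are also known from epithelium. So are Adora2b, which was higher in Ly6C+ pCAFs, and F2rl1 and Gprc5a, which did not pass (adjusted p = 0.220 and 0.824). Epithelial markers summed over 11 genes were higher in Ly6C− libraries (121 to 410 against 18.3 to 60.3), with Krt14 and Krt19 of 5 tested passing and Epcam at 0 to 2.95, and their part in these differences was not tested. Gpr153 illustrates the 12 that did not pass (162 to 233 against 173 to 227; adjusted p = 0.954). Gpr137b and its pseudogene Gpr137b-ps are near-identical copies that may share reads, and neither passed.

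**Figure D3:**
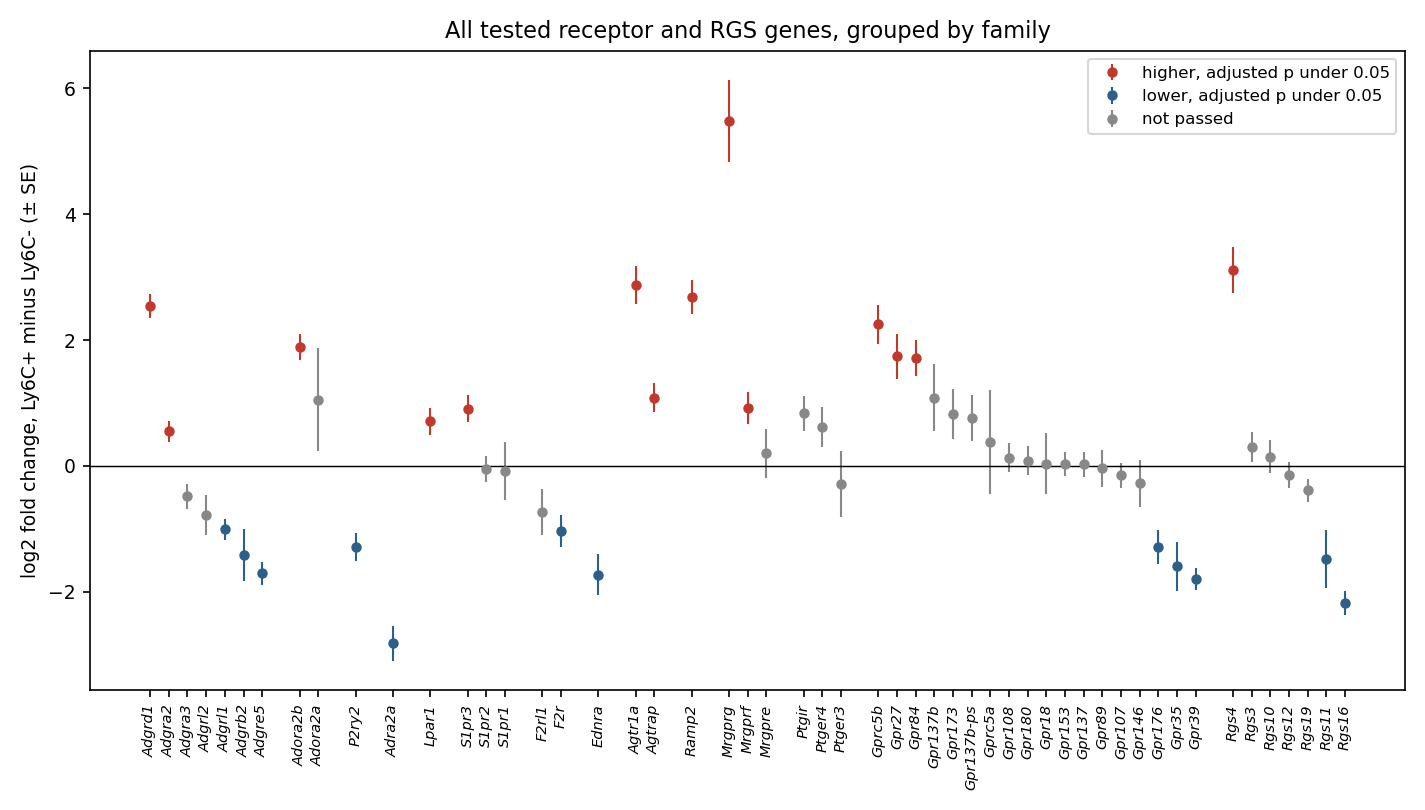
Log2 fold change with its standard error (y axis, Ly6C+ minus Ly6C−, limma on log2(value + 1)) for all 52 tested members (x axis), grouped by family, with calls higher and lower in Ly6C+ in colour and genes that did not pass in grey. Adgrd1, Agtr1a, Ramp2, Gprc5b and Rgs4 lie above 2 and Adra2a and Rgs16 below −2; the position of Mrgprg depends on the pseudocount, since it had no read in Ly6C− libraries.

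RGS genes changed in both directions within 1 subfamily. Rgs16, a small RGS protein that acts on Gi and Gq, measured 133, 186 and 162 across the Ly6C+ libraries, against 615, 705 and 867 for Ly6C−. All Ly6C− values were far above the Ly6C+ values, a 4.55-fold difference (log2 fold change −2.18, SE 0.19; adjusted p = 1.88e-05). Rgs4, a protein of the same R4 subfamily with the same G protein targets, measured 20.7, 30.8 and 26.3 across the Ly6C+ libraries, against 1.97, 1.70 and 2.62 for Ly6C−, 12.4-fold higher in Ly6C+ pCAFs on 109 reads against 6 (log2 fold change 3.11, SE 0.37; adjusted p = 0.000161). Both lie on chromosome 1, Rgs16 at 153740349 to 153745468 on the plus strand and Rgs4 at 169741477 to 169747642 on the minus strand.

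No call was made for the other R4 genes of the set. Rgs3 did not pass (33.8 to 38.6 against 23.6 to 34.1; adjusted p = 0.458). Rgs2, an inhibitor of Gq, was too low for the test, and its values were higher in Ly6C− without overlap (2.44, 0.752 and 3.86 against 4.92, 4.25 and 10.5). Rgs5, a defining gene of pericytes, stayed at or below 5.24 in every library, and its level overlapped between the groups. Rgs11, of the R7 subfamily known from retina and neurons, was higher in Ly6C− pCAFs (2.44, 4.51 and 8.50 against 20.7, 14.5 and 10.5; adjusted p = 0.0497). The call of Rgs11 ended without Ly6C+ replicate 1 or 2 (0.171 and 0.121) or Ly6C− replicate 1 or 2 (0.135 and 0.134), in DESeq2 (0.0689) and after thinning (0.101). Rgs10, Rgs12 and Rgs19, which act on Gi, did not pass (adjusted p = 0.781, 0.733 and 0.193).

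Ednra, Adra2a, F2r and Rgs16, lower in Ly6C+ pCAFs, are also expressed by vascular mural cells. So are Agtr1a, Rgs4 and S1pr3, which were higher in Ly6C+ pCAFs. Markers of mural cells differed between the groups in both directions. Of 8 tested pericyte and smooth muscle markers, 5 were lower (among them Cspg4 and Myh11) and 1, Kcnj8, was higher in Ly6C+ pCAFs. Their summed level over 10 genes was 313 to 440 in Ly6C+ and 868 to 1375 in Ly6C− libraries. Higd1b, a pericyte gene of the list, had no read in any library. The part of mural cells in the receptor differences was not tested.

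**Figure D4:**
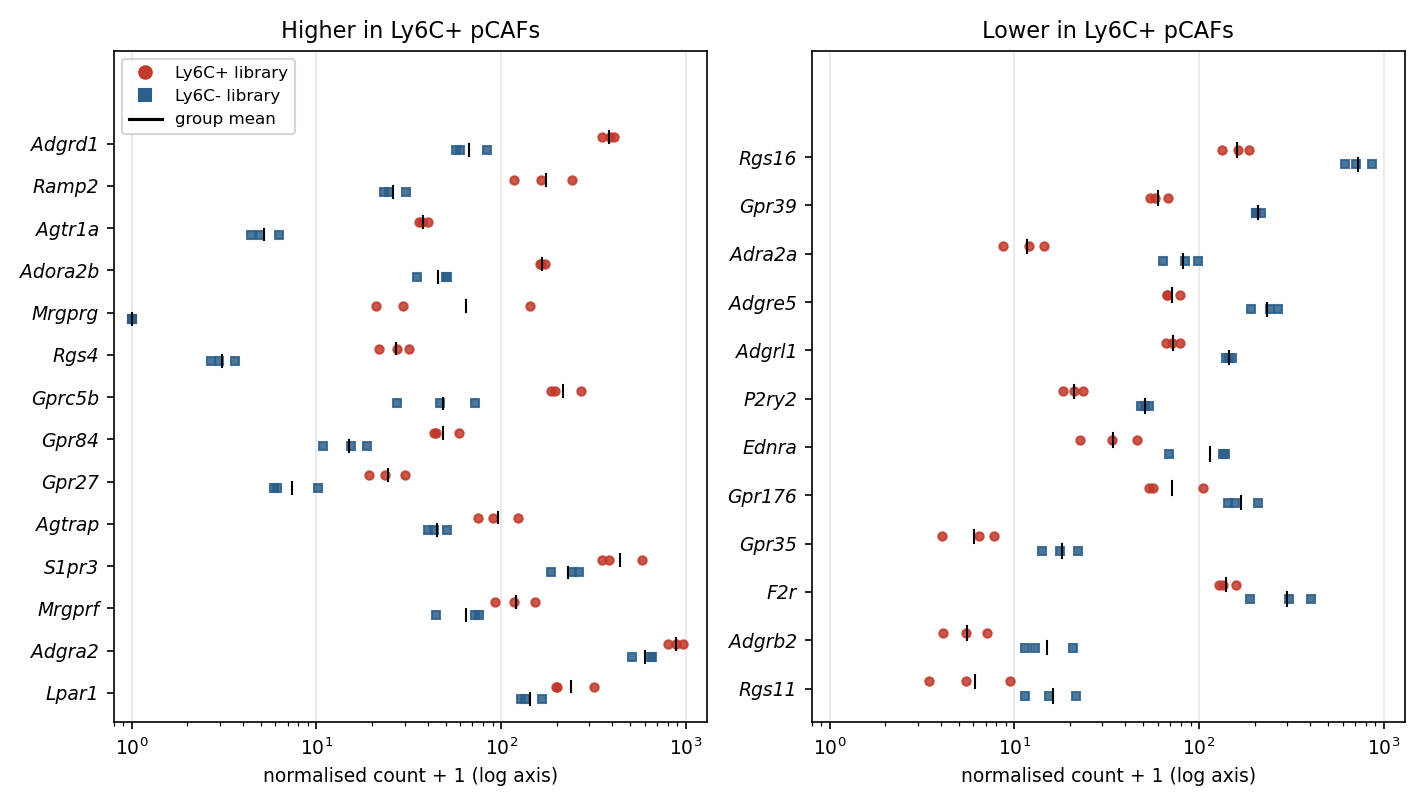
Normalised count plus 1 on a log axis (x) for the 14 members higher (left) and the 12 lower (right) in Ly6C+ pCAFs, 1 point per library, with circles for Ly6C+ and squares for Ly6C− libraries and a black line at each group mean. The groups do not overlap for any of the 26 genes; Mrgprg, at 0 in the 3 Ly6C− libraries, sits at the left end of its axis.

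The members too low for the test numbered 42, of which Gpr165 and Rgs6 had no read in any library. The others reached at most 15.7 in any library. Without the minimum on the mean, 10 of them passed; in that fit 14.8% of all genes and 8.22% of those with a mean under 5 were called. Among those higher in Ly6C+ were Adra1b, Adra1d, Calcrl, Lpar2 and P2ry14, and higher in Ly6C− were F2rl2, F2rl3, Htr1b and Htr2b. These rest on 12 to 35 reads in the higher group.

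Promoters were searched for the motif of RUNX factors, since the study's title names RUNX1, and for 5 other motifs. Shown are the 3 promoters of lower members that held both RUNX and AP-1 letters and, as an example chosen after the matches were seen, 1 of the 2 of higher members with RUNX letters. RefSeq promoters (GRCm38.p6) were found for 71 of the 94 members, and the 250 bases before each start were searched on both strands for TGTGGT (RUNX), TGANTCA (AP-1), GGAATG (TEAD), TGACGTCA (CRE), CACGTG (E-box) and the CArG box. The RUNX letters were in 14.0% and the AP-1 letters in 6.75% of 32851 promoters of all genes. Among 97 promoters of members, tested or not, the shares were 10.3% and 11.3%. Of 12 promoters of the lower members (10 genes), 3 held both, those of F2r, Gpr35 and Gpr39. The share of all promoters that held both was not counted, so these 3 have no share to stand beside. Of 10 promoters of the higher members (8 genes), 2 held the RUNX letters (Agtrap and Lpar1) and none the AP-1 letters. Of 30 promoters of tested members that did not pass (20 genes), 1 held each. The untested member Lpar2 also held both. The CRE letters, which cyclic AMP-responsive promoters often hold, occurred in none of the promoters of called members and in 1.55% of all promoters. Each sequence reads 5′ to 3′ on the gene's strand and ends at the base before the start, and capitals mark the matches, none of which overlap.
Gpr39, chr1:125676746-125676995, plus strand, lower in Ly6C+: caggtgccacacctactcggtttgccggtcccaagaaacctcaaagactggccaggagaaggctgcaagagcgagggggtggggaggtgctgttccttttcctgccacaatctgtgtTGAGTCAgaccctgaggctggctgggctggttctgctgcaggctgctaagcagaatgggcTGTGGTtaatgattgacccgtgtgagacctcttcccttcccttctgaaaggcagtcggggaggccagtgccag
F2r, chr13:95618467-95618716, minus strand, lower in Ly6C+: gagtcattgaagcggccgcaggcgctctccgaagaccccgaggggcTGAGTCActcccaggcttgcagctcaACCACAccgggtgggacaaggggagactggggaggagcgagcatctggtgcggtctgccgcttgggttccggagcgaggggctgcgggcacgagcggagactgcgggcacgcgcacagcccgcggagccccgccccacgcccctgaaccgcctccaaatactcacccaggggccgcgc
Gpr35, chr1:92978653-92978902, plus strand, lower in Ly6C+: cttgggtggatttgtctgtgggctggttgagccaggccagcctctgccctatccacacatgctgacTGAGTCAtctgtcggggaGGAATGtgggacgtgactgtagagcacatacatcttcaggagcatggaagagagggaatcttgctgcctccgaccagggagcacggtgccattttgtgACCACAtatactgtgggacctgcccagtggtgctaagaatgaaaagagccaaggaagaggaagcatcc
Agtrap, chr4:148088065-148088314, minus strand, higher in Ly6C+: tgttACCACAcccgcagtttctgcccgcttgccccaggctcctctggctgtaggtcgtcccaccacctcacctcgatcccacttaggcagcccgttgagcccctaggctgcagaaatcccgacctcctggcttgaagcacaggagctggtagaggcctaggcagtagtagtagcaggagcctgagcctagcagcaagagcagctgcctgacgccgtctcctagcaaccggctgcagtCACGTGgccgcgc
In Gpr39 the AP-1 match began 133 and the RUNX match 73 bases before the start, in F2r 204 and 178, and in Gpr35 184 and 68. The Gpr35 window also held the TEAD letters, 166 bases before the start, and the Agtrap window an E-box at 13. TEAD letters were in 12.6% and E-box letters in 6.02% of the promoters of all genes. A match is a description of the letters and no measure of binding.

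The rest of the pathway was followed in lists of genes outside the name rule. The counts of these lists stand beside a share of 17.1% called among all tested genes. Of 19 tested G protein subunits, 3 were higher and 1 lower in Ly6C+ pCAFs and 15 did not pass, which is near that share. Their median log2 fold change was 0.05, and no alpha subunit was called. The alpha subunits of Gs and Gi, Gnas (2135 to 3308 against 2319 to 3215; adjusted p = 0.906) and Gnai2 (1283 to 1968 against 1366 to 1772; adjusted p = 0.966), overlapped between the groups. The 4 called were gamma subunits. Gng11 was 3.39-fold higher in Ly6C− (84.2, 95.5 and 60.3 against 268, 310 and 235; adjusted p = 0.000158), Gngt2 3.46-fold (184, 112 and 154 against 46.3, 36.6 and 47.2; adjusted p = 0.000292) and Gng7 5.93-fold higher in Ly6C+ pCAFs (adjusted p = 0.00592; 9.12-fold without Ly6C− replicate 1). Gng10 (adjusted p = 0.0498) lost its call in 14 of 21 alternatives, among them edgeR (0.0510), and in all fits without 1 library (0.0936 to 0.218) other than that without Ly6C− replicate 3.

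Among 29 tested second messenger enzymes and effectors, 5 were higher, 3 lower and 21 did not pass (median log2 fold change −0.16). Pde8a, a cyclic AMP phosphodiesterase, was 3.89-fold higher in Ly6C+ pCAFs (82.3, 82.7 and 91.2 against 26.6, 19.6 and 19.7; adjusted p = 0.000112). The adenylate cyclase genes went both ways: Adcy5 was 4.14-fold higher in Ly6C+ (72.0, 57.1 and 30.9 against 15.8, 11.1 and 11.8; adjusted p = 0.00205), and Adcy1 had no read in Ly6C+ libraries and stood at 12.8, 11.9 and 11.8 in Ly6C− (adjusted p = 0.000661). Plcb4, a phospholipase C activated by Gq, was 3.88-fold higher in Ly6C+ pCAFs (adjusted p = 0.00310). Of 6 tested receptor kinases and arrestins, Grk5, a kinase that desensitises receptors, was 4.64-fold higher in Ly6C+ pCAFs (91.5, 97.0 and 81.1 against 23.6, 18.7 and 15.7; adjusted p = 6.45e-05) and 5 did not pass (list median −0.09). Of 22 tested ligand and ligand-enzyme genes, 5 were higher, 2 lower and 15 did not pass (median 0.18).

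Cyclic AMP-responsive genes gave 2 calls among 12 tested, near the 17.1% called among all tested genes, with a median log2 fold change of 0.17. The calls were Dusp1 and Fos, both higher in Ly6C+ pCAFs (3.01-fold and 2.07-fold; adjusted p = 0.000569 and 0.00184). Fos did not pass after quantile normalization (0.0602). Dusp1 overlaps Ergic1 on the other strand, which was also higher in Ly6C+ pCAFs (adjusted p = 0.0160). Whether strand was used in counting is not given, so reads of this locus may be divided uncertainly. Dusp1 and Fos also belong to the list of immediate early and stress genes. Of these, 17 of 23 tested were higher in Ly6C+ pCAFs and none lower (Klf4, Atf3, Socs3 and Zfp36 had the smallest p). The genes of this list had a median of 0.88 and a summed level of 58901 to 63885 against 28893 to 32444. Such genes are known to respond to tissue dissociation; its part in these values was not tested. Crem, Nr4a2 and Per1, cyclic AMP targets as well, did not pass (adjusted p = 0.653, 0.107 and 0.798).

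Receptors outside the name rule gave 5 higher, 3 lower and 14 not passing of 22 tested (median log2 fold change 0.19). The smallest p belonged to 3 atypical chemokine receptor genes, whose products bind chemokines without G protein signalling: Ackr3 was 17.8-fold, Ackr1 28.3-fold (145, 76.7 and 76.5 against 4.92, 1.70 and 3.93; adjusted p = 1.36e-05) and Ackr2 12.1-fold higher in Ly6C+ pCAFs (23.2, 19.5 and 21.6 against 0.984, 1.70 and 2.62; adjusted p = 0.000362). Ackr1 overlaps Cadm3 on the same strand, which was higher in Ly6C+ pCAFs too (adjusted p = 4.60e-05), so reads of this locus may be divided uncertainly. Ackr4, another gene of this group, was too low for the test, with 22 reads in Ly6C+ and 2 in Ly6C− libraries. Bdkrb1, the inducible bradykinin receptor, was 2.36-fold higher in Ly6C− pCAFs (98.2, 128 and 130 against 249, 360 and 229; adjusted p = 0.00216).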

How the data were processed

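RNA was measured in 6 libraries, 3 per sorted group, each a 3′ end mRNA library. The authors deposited signal values that are normalised counts, gene counts scaled by a library-wide size factor. The submitters' processing notes name HTSeq, bcl2fastq and STAR 2.4.2a, with the mm10 build. How the size factors were computed, which annotation was counted, and whether strand or molecular tags were used is not given in the sources used here. All values of a library were whole multiples of 1 step (100% within a tolerance of 0.001), so whole reads were recovered; edgeR with TMM factors on them called 1722 genes. Groups were compared with limma 3.58.1 under R 4.3.3 on log2(value + 1) with a mean-variance trend and no block, on 9646 genes with a mean value of at least 5, with Benjamini-Hochberg adjustment over all of them and a threshold of 0.05. The alternatives used other pseudocounts (0.5 and 5), minimums, scalings, priors, edgeR 4.0.16, DESeq2 1.42.0, thinning and each library left out. Intervals are exact (95%), floors are 3 reads over the group, and both cover counting error only. Coordinates and overlapping genes come from GENCODE M21. The members, lists and tests were chosen with earlier results of these data known. The rule named up to 30 members past the test, the tested member with the highest mean of each family, and up to 4 genes of each other list; further members were named after their values were seen. The fits were first tested on simulated data with known changes. Figures used matplotlib 3.10.9. 1 untested member is counted but not reported by name here.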

Additional observations from a re-analysis of the deposited data

How the results depend on the processing

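The counts of 14 higher and 12 lower members stayed within 10 to 20 and 8 to 15 over all 21 alternative fits and both other thresholds. Of the 26 called members 18 passed in every alternative in which they were tested, and 8 lost the call in at least 1 (S1pr3, Gpr35, F2r, Mrgprf, Adgrb2, Adgra2, Lpar1 and Rgs11). A threshold of 0.01 left 959 of the 1647 genes called over the whole table. Scaling each library to its own total shifted the all-gene median (log2) by −0.19, so that 37.4% of 1936 calls were higher against 55.1% in the main test; members then gave 11 higher and 14 lower, Adgra2, Lpar1 and Mrgprf lost the call and Adgra3 and Rgs19 gained it (adjusted p = 0.0417 and 0.0489). The naming rule picked Ptger3 and Gpr153 without a call, and the direction of both changed. Ptger3 ran from −1 to 0.32 with 1 library left out, above 0 only without Ly6C− replicate 1. Gpr153 stood at −0.17 with own-total scaling, and at −0.10 to 0.16 with 1 library left out. Directions of the other members without a call are not given here. Leaving out 1 library gave 10 to 14 higher and 8 to 12 lower members and 1121 to 1728 genes. With thinning to 1176909 reads 12 members were higher and 10 lower. Same-numbered libraries deviated together with correlations of 0.129, 0.0518 and 0.167 across genes, and each library correlated best with its own number, a hint from the data only; the labels tie the numbers to no shared animal. With the replicate number as a block, limma called 2088 genes and 15 higher and 11 lower members (Ptgir gained and Rgs11 lost), and edgeR 2112 genes with 15 and 12. Depth limits the 42 untested members, which a minimum mean of 5 left out.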
